A study of Mus musculus with 11 samples.

Results

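Sympathetic ganglia of 78-week-old wild-type male mice were profiled on 5 Affymetrix arrays, and those 5 arrays, of the 11 in the series, are described here across all genes measured. They were chosen by their titles, which name wild-type ganglia at that age. Per the labels, the animals were of strain C57BL, came from the Jackson Laboratory and ate normal chow. No treatment, transgene or deletion is given for them. The ganglia were cut from fresh-frozen tissue by laser capture, a method that dissects chosen areas of a section under a microscope, and total RNA was measured. The remaining 6 arrays, from Apoe-deficient mice, entered only 1 alternative normalisation, given with the other alternatives. The labels name neither the ganglia taken (cervical, stellate or abdominal) nor the animal behind each array, so the spread between arrays given here may be biological or technical. The series title sets the work in the exchange between the atherosclerotic aorta and the peripheral nervous system.

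A sympathetic ganglion holds the cell bodies of the nerve cells that drive vessels, heart, glands and fat. These neurons are excited by acetylcholine from the spinal cord and most of them release noradrenaline with neuropeptide Y as a cotransmitter, while a minority release acetylcholine and vasoactive intestinal peptide instead. Satellite glia wrap each cell body, Schwann cells accompany the axons, and the ganglion is crossed by capillaries, enclosed in a fibrous capsule and often embedded in fat.

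The level of a gene is given as its deposited signal, a linear array intensity, from the probe set of highest mean among those that the annotation ties to that gene alone. Of 12393 genes so represented, 8326 (67.2%) exceeded a low-signal bound of 113.1 in at least 3 of the 5 arrays, and 7443 exceeded it in all 5. The bound is the 40th percentile of all values and is not a detection call: of 43 genes restricted to other organs, 11 (25.6%) also exceeded it. Percentiles below are ranks of mean log2(signal + 16) among the 12393 genes. They rank signal and not transcript abundance, because probe sets bind with different strength. Where a gene above the bound had more than 1 probe set, the first exceeded the second by a median of 2.27-fold. The 5 arrays had the same scale (2% trimmed mean 500.2 in each) and median signals from 163.0 to 182.4. Their pairwise Spearman correlations across the 8326 genes above the bound ran from 0.954 to 0.966. The ratio of 3' to 5' Gapdh control signal, which is higher in shorter RNA, was 1.5, 1.23, 1.05, 0.990 and 1.01 in replicates 1 to 5, and that of Actb was 3.55, 2.90, 2.57, 2.41 and 2.66. The arrays fell into distinct levels of the hybridisation control spikes, whose mean was 11699 in replicate 1 and 15578 in replicate 2 but 7651 to 8061 in replicates 3, 4 and 5. The brightest genes were also brighter in replicates 1 and 2, so spreads between arrays were taken after quantile normalisation, which gives every array the same distribution of values.

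The defining genes of noradrenergic neurons stood at the top of the ranking in every array. The signal of Npy, the gene of neuropeptide Y, was 26640.5, 34305, 20038, 20192 and 20154 in replicates 1 to 5, which placed it at rank 2 of all genes. Th, the gene of the rate-limiting enzyme of noradrenaline synthesis, gave 15483, 18058, 12518, 13550.0 and 13168, and Dbh, whose enzyme turns dopamine into noradrenaline, gave 14668, 18660.1, 12542, 12982 and 12937. All 5 arrays were high for these genes, and replicate 2 was the highest for each. The means were 24266 ± 6281 for Npy, 14555 ± 2248 for Th and 14358 ± 2540.4 for Dbh (mean ± SD, n = 5, as in every mean below; 5 listed signals are always those of replicates 1 to 5 in that order). After quantile normalisation their SDs were 0.062, 0.071 and 0.10 log2 units, against a median of 0.198 over the genes above the bound. Without that step their SDs were 0.35, 0.21 and 0.24. Apoe, the lipid carrier that glia and macrophages secrete, had rank 28 with 19649, 15978, 11830.3, 13024 and 15293. Replicate 1 was the highest and replicate 3 the lowest, and the SD was 0.17 log2 units. Of 3 Y-linked genes, Eif2s3y gave 289, 217, 376, 527 and 459 and Uty 163, 142, 163, 169 and 165, above the bound, whereas Kdm5d, at 105, 101, 88.5, 98.2 and 93.8, was under it in every array. Of 3 probe sets of Xist, the transcript of the inactive X chromosome, 2 lay between 3.2 and 27.5. The remaining Xist probe set read 169.9 to 246.5.

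The steps of noradrenaline synthesis and handling were represented almost completely. Of 13 measured members of that list, 12 exceeded the bound, 6 were among the 100 genes of highest signal, and the median percentile was 97.2. Ddc, which makes dopamine from L-DOPA, had a mean of 16639.9 ± 2564. Cyb561, the cytochrome that keeps vesicular ascorbate reduced for Dbh, had 12601 ± 1987, and Maoa, the oxidase that degrades noradrenaline, had 10235 ± 2341. The cofactor of Th, tetrahydrobiopterin, is made by Gch1 (4008 ± 465), Pts (960.1 ± 42.5) and Spr (765 ± 98). It is recycled by Qdpr (11838 ± 955) and Pcbd1 (4791 ± 582). Qdpr had an SD of 0.031 log2 units after quantile normalisation and 0.12 without it. Slc6a2, the transporter that takes noradrenaline back up, read lower, at 628, 566, 668, 596 and 692, and was even across the arrays (SD 0.095). Pnmt, which makes adrenaline in the adrenal medulla, gave 81.8, 161, 51.8, 189 and 46.3 and did not pass the bound.

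The last 150 bases before the annotated start of Th are shown because Th is the defining gene of the tissue and carries in this window the full cyclic AMP response element TGACGTCA, in capitals. The RefSeq window lies at chr7:142899996-142900145 on the minus strand of GRCm38.p6, and the element begins 45 bases before the start.
Th: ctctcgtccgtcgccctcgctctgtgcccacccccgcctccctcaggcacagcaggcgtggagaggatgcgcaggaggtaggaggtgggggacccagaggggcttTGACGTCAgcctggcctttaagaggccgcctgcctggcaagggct
Searched on both strands, TGACGTCA occurred in 447 of 32851 RefSeq windows of the same length (1.36%). The match is a description of the sequence.

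Beyond the transmitter genes, the brightest transcripts included cytoskeletal, metabolic and translation genes. The 30 genes of highest mean signal ran from 14846 to 30024 and together made up 5.02% to 6.78% of the summed signal of an array; the first 1000 made up 52.5% to 55.5%. Tuba1a, an alpha-tubulin of axons, was the brightest gene in each of the 5 arrays, with 35927, 42974, 23490.2, 22694 and 25036. Npy followed, and then Ndrg4 (23575 ± 6646), Hspa8 (22961 ± 4176), which encodes the constitutive heat shock chaperone, the translation factor gene Eef1a1 (19459 ± 2502) and Gnas (19538 ± 4114), the stimulatory G protein subunit. Microtubule and actin regulators were frequent among the 30: Stmn3 and Stmn2 (stathmins), Tmsb10 and Tmsb4x (thymosins), Actb, Actg1 and Tubb2a. Glycolysis and mitochondria were represented by Pgk1, Aldoa, Cox6a1, Slc25a4 and Atp5g3. Translation was represented by Rps29, Rpl38, Rpl41, Rps28 and Tpt1, and the remaining places went to Ywhab, Fabp5, Ddc, Scd1, Akr1a1, Rtn3 and Apoe. Of the 30 probe sets, 8 carry a suffix (_x_at) and 5 a suffix (_s_at) that mark possible binding to related transcripts, so the order within close families is uncertain.

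**Figure D1:**
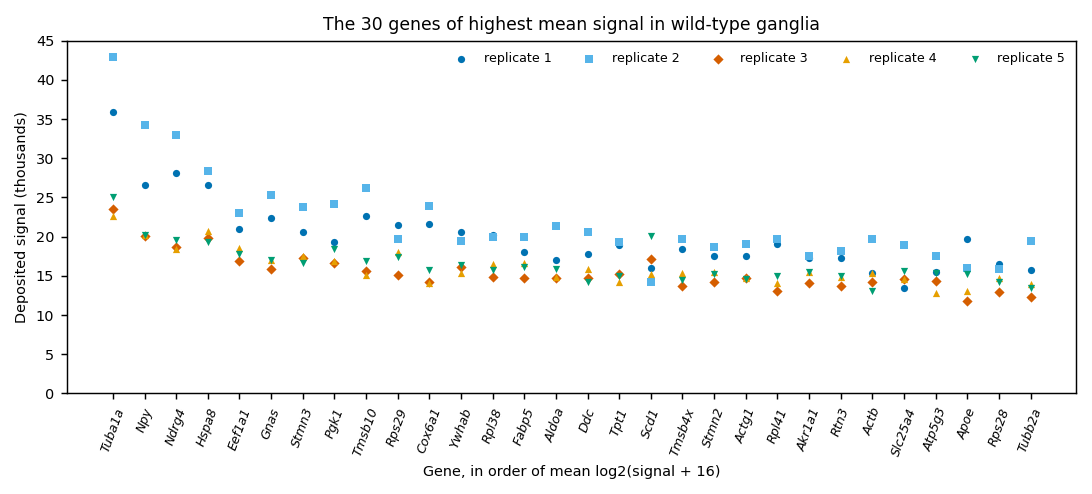
Deposited signal (vertical axis, in units of 1000) of the 30 genes of highest mean signal, in rank order, with 1 point per wild-type array. Replicates 1 and 2 lie above the other arrays for Tuba1a, Npy and Ndrg4, while Scd1 is highest in replicate 5.

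Housekeeping machinery held mostly high ranks and varied little, as did most genes of high signal. All 43 measured ribosomal protein genes exceeded the bound, with a median percentile of 98.6, and 9 of the first 100 genes were ribosomal. Rps29 had 18353 ± 2397, whereas Rpl12 had the lowest signal of the list (152 ± 21.6). Of 68 respiratory chain and ATP synthase genes, 67 exceeded the bound with a median percentile of 96.5. Cox6a1 was the highest (17946 ± 4545) and the exception was Cox7c, at 96.0, 67.7, 88.3, 80.8 and 173. All 31 proteasome genes (median percentile 95.0) and all 19 genes of cholesterol synthesis and uptake (84.6) passed as well. In the cholesterol list, Hmgcs1, the first committed step toward mevalonate, gave 14029.5 ± 2018 and Fdft1, the squalene synthase, 6912 ± 615. Across these 4 lists 0 genes had an SD over 0.5, against 4.66% of all genes above the bound. These lists are mostly of high signal, and of the 2776 genes of highest signal only 2.31% had such an SD.

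Structural and secretory genes of neurons were mostly high. All 27 measured members of the general neuron list exceeded the bound, and 22 lay above the 90th percentile. The peripheral intermediate filament gene Prph gave 12874 ± 1469, the light neurofilament Nefl 9126 ± 1220.3 and the medium and heavy chains Nefm 2954 ± 754 and Nefh 2254 ± 287. Uchl1, the neuronal deubiquitinase known as PGP9.5, had 14556 ± 2268. Map2, the dendritic microtubule protein, was the low exception, at 170.4, 117, 188, 119 and 146. All 25 measured synaptic vesicle and exocytosis genes passed. Snap25, a SNARE of the plasma membrane, led them with 11137 ± 868, followed by Cplx1 (8690.4 ± 1431), a complexin that clamps fusion. The granins and processing enzymes of dense-core vesicles covered a wider range. Scg5 had 2685 ± 242, Scg3 2591 ± 119, and the processing enzyme genes Pcsk1 and Pam 780 ± 117 and 447 ± 133. The brightest were Scg2 with 6483 ± 1007, Cpe, the carboxypeptidase that trims peptides, with 6068 ± 291, and Chgb with 5475 ± 458. The SDs of these brightest 3 were 0.20, 0.097 and 0.14 log2 units, against 0.98 for Chga, described below.

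Receptors and regulators of sympathetic neurons spanned a wider range. Of 14 nicotinic receptor subunit genes, 5 passed the bound: Chrna3, Chrnb4 and Chrna5, known from autonomic ganglia, and Chrna4 and Chrnb2. Chrna7, also a member of the noradrenergic neuron list, gave 73.6, 22.3, 75.9, 79.7 and 70.4, under the bound in every array. Chrna3, the subunit that binds acetylcholine in ganglia, gave 3128, 3429, 3325, 3401 and 2693 and was even across arrays. Chrnb4, its usual partner, gave 374, 688, 881, 631 and 801, lowest in replicate 1. The muscle subunits Chrna1, Chrnb1, Chrnd, Chrne and Chrng all read under 100 in every array. Among growth factor receptors, 10 of 11 passed: Ngfr, the p75 receptor of neurotrophins, had 8795 ± 2361, and Ret, the receptor kinase of the GDNF family, 575 ± 114. Of 12 transcription factors of the lineage, 9 passed. Isl1 had 2728 ± 339, Phox2a, which drives noradrenergic identity, 2614 ± 499, and Gata2 2392 ± 286. Hand2, which maintains Th and Dbh transcription, had 211 ± 31.7, a moderate signal, while Insm1 and Sox11, factors of immature neurons, stayed under the bound in every array.

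Genes of satellite glia and of myelin were measured at a wide range of ranks. Of 19 satellite glia genes, 17 passed the bound, with a median percentile of 76.0. After Apoe and Hmgcs1, which other cells also express, came Fabp7, the brain fatty acid binding protein typical of satellite cells, with 8571, 3563, 6420.0, 7157 and 7679.5. Replicate 2 was the lowest for Fabp7, below the other 4 arrays. S100b, a calcium-binding protein of glia, had 1559 ± 338, Sox10, the transcription factor of all peripheral glia, 1023 ± 349, and Kcnj10, the glial potassium channel, 533 ± 211. Gfap, the filament gene of reactive glia, gave 163, 169, 151, 100.2 and 147, above the bound in 4 arrays. Of 14 myelinating Schwann cell genes, 8 passed and the median percentile was 45.7. Pmp22 (8563 ± 837), Mbp (6932 ± 1749) and Cnp (4817 ± 804) were above the 97th percentile, whereas the myelin transcription factor gene Egr2 gave 104, 68.8, 78.5, 117 and 67.8. All 6 measured non-myelinating Schwann cell genes passed, but the 4 high ones, Ngfr, L1cam, Gap43 and Ncam1, are also made by neurons.

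Vessels and connective tissue were measured mostly at middle ranks. Of 21 endothelial genes, 18 passed the bound, with a median percentile of 48.8. The highest, Fabp4, is shared with fat cells. Ramp2, a receptor partner in vessels, had 894 ± 127, Kdr, the main VEGF receptor, 299 ± 30.9, and Cdh5, the endothelial cadherin, 232 ± 42.2. Of 19 smooth muscle and pericyte genes, 12 passed, and Mcam read highest (6030 ± 482, percentile 97.9). Acta2, smooth muscle actin, gave 948, 1211, 800.2, 1659 and 2202 and Rgs5, a pericyte marker, 1349, 1153, 826, 1375 and 1791. Both were highest in replicate 5 and lowest in replicate 3. Of 24 fibroblast and matrix genes, 23 passed. Gsn, an actin-severing protein abundant in fibroblasts and present in glia, had 9599.5 ± 456, the proteoglycan Dcn 6875 ± 1627 and Sparc 5385 ± 667. Collagen genes were lower, from Col1a2 (1615 ± 298) to Col1a1 (199 ± 57.3). In these bulk samples, fewer cells of a type and less RNA per cell cannot be told apart.

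Genes of white fat cells were also measured mostly at high signal. Of 20 white adipocyte genes, 17 passed the bound, 9 lay above the 90th percentile and the median percentile was 87.1. Scd1, the desaturase of lipid synthesis, had 16539 ± 2289 and Car3, the carbonic anhydrase abundant in fat, 13718 ± 4746. Adipoq, which encodes adiponectin and is nearly restricted to fat cells, gave 3208, 1409, 5927, 3900.3 and 7399.5. Every array held it well above the bound, and replicate 5 was highest and replicate 2 lowest. Scd1 and Fasn are also expressed by glia, so Adipoq, Retn (2489 ± 1025), Cidec (1078 ± 559) and Thrsp (6000.1 ± 3377) are the more specific members. Lep, the leptin gene, gave 15.3, 25.2, 60.6, 29.6 and 14.1, under the bound in every array. Of 10 brown adipocyte genes, 7 passed, near the share of 67.2% over all genes. The percentiles of these 10 ran from 0.549 for Lhx8 to 84.8 for Cox8b. Ucp1, the uncoupling protein that defines brown fat, gave 265, 866, 149.7, 109 and 993, high in replicates 2 and 5 and near the bound in replicates 3 and 4.

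Immune genes were mainly those of macrophages. Of 25 macrophage genes, 20 passed, with a median percentile of 59.2. Csf1r, the receptor that keeps macrophages alive, had 2007 ± 327, the complement subunits C1qb and C1qa had 848 ± 66.2 and 529.5 ± 42.5, and Mrc1, the mannose receptor of tissue macrophages, had 372 ± 72.9. Cx3cr1 and Trem2, which mark microglia-like or lipid-associated cells, stayed under the bound in all arrays. Class II antigen presentation was present, with H2-Aa at 4148 ± 727 and the invariant chain Cd74 at 1146 ± 167. Lymphocyte genes were low: Cd3e gave 177, 28.6, 45.6, 87.3 and 33.1, Cd3d 23.4, 21.2, 25.2, 13.6 and 21.9 and Cd4 20.2, 25.7, 14.5, 17.5 and 22.2. Only replicate 1 exceeded the bound for Cd3e. Of 16 T and natural killer cell genes, 3 passed, of which the highest, Thy1, is also a neuronal gene. Zap70, a kinase of the T cell receptor, gave 1049, 997, 461, 649 and 1129, although the receptor chains Cd3e, Cd3d and Cd3g did not pass. Cd79a, a chain of the B cell receptor, gave 139, 63.1, 109, 72.1 and 85.5 and did not pass.

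Several other lists were mostly low. Of 11 globin and other erythroid genes listed, 6 were measured and 0 of these passed the bound. Hbb-b2 was the highest of them at 89.3, 223, 58.3, 12.9 and 159.6. The 691 probe sets tied to several genes were left out, and with them any globin probe set of that kind. The blood content of the tissue was therefore not tested by these values. Of 10 neutrophil genes, 4 passed at low values, while S100a8 (36.5, 13.6, 46.7, 23.0 and 31.4) and S100a9 (50.8, 11.3, 15.1, 13.5 and 12.4) were under it. Of 18 skeletal muscle genes, 4 passed: Myl1, described below, Eno3 (277, 196, 208, 205 and 225), Ckm (196, 200.4, 198, 154 and 210.0) and Atp2a1 (132, 139, 106, 70.3 and 122). Acta1 gave 134, 73.1, 82.6, 71.7 and 95.1 and Tnnc2 7.6, 8.2, 6.8, 7.9 and 9.7. The nociceptor channel gene Scn10a (19.5, 19.0, 17.3, 2.1 and 1.9) and P2rx3 (15.5, 11.5, 12.1, 9.1 and 3.4), both defining for sensory ganglia, were under the bound in every array. Avil, an actin-binding protein placed in the sensory list, was nevertheless high (4806 ± 483). Of 10 epithelial and mesothelial genes, Cdh1 (574 ± 147) and Krt8 (129 ± 53.9) passed, and Epcam gave 7.2, 4.1, 6.7, 8.5 and 8.3. Of the 10 chromaffin and adrenal cortex genes, 5 passed: Chgb, Chga and Penk, which neurons also make, and the steroid synthesis genes Star (215, 311, 329, 184 and 389) and Cyp21a1 (193, 223, 195, 109 and 177). The steroid enzyme gene Cyp11a1 gave 7.4, 8.8, 7.0, 2.1 and 9.4, under the bound. Among the 43 genes of other organs, the median percentile was 22.6, but Cyp2e1, an enzyme of liver and fat, gave 4648, 1492, 6132, 5326 and 8704. Its order over the arrays was that of Adipoq, from replicate 2 as the lowest to replicate 5 as the highest.

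**Figure D2:**
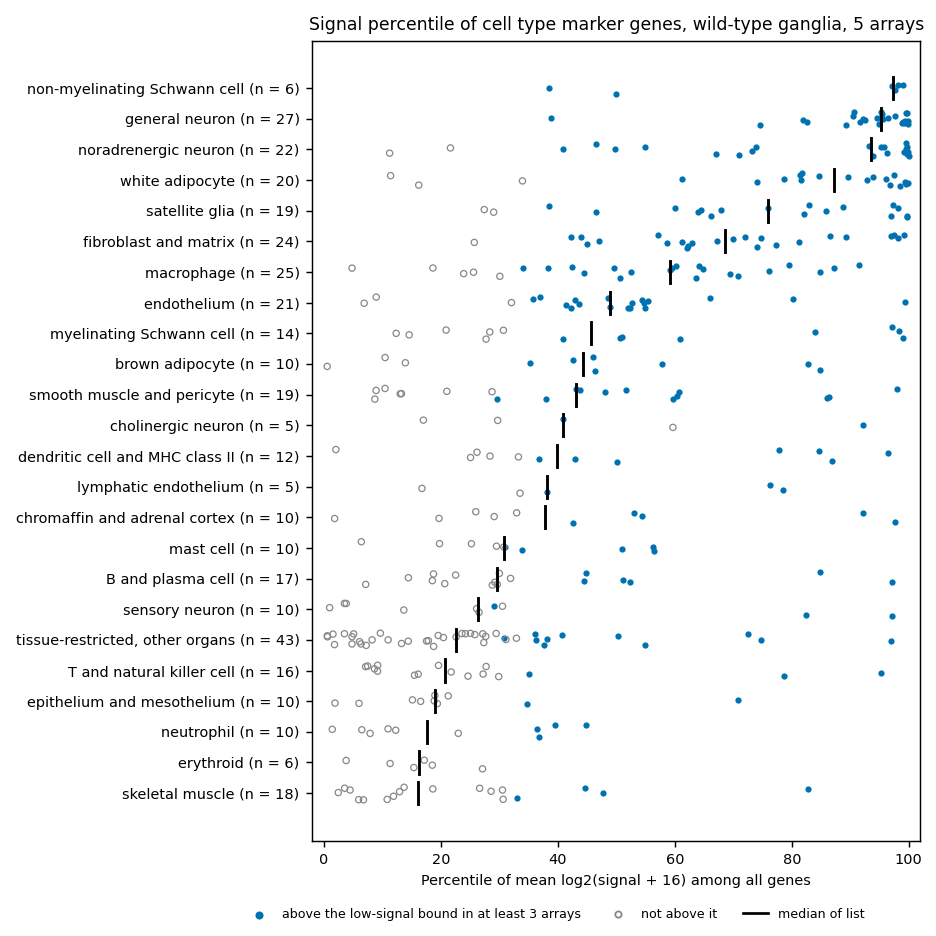
Percentile of mean log2(signal + 16) among 12393 genes (horizontal axis) for each measured member of 24 marker lists (rows, ordered by median); filled points exceeded the low-signal bound in at least 3 of 5 wild-type arrays and black bars are medians. Neuron lists lie to the right, with medians of 95.3 and 93.5, white adipocyte genes at 87.1 and satellite glia at 76.0, while skeletal muscle and erythroid genes lie near 16.

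The spread of genes between the 5 arrays was small for most and large for a few. Over the 8326 genes above the bound, the SD after quantile normalisation had a median of 0.198 log2 units, a 10th percentile of 0.0956 and a 90th percentile of 0.388. An SD under 0.15 was found for 2554 genes (30.7%), called steady here, and an SD over 0.5 for 388 genes (4.66%), called variable. Spread fell with level: among the 2775 genes of lowest signal 8.90% were variable, against 2.31% of the 2776 highest. Replicate 5 was the highest array for 117 (30.2%) of the 388 variable genes, against 16.05% of all genes above the bound. Replicate 1 was highest for 88 (22.7%), against 24.9%, and replicate 4 for 47 (12.1%), against 19.3%. Among the variable genes, 93 (24.0%) did not overlap between the arrays of high and of lower hybridisation control, against 24.9% of all genes above the bound. Counts of variable genes exclude 936 genes above the bound in only 1 or 2 arrays, 336 of which had an SD over 0.5.

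**Figure D3:**
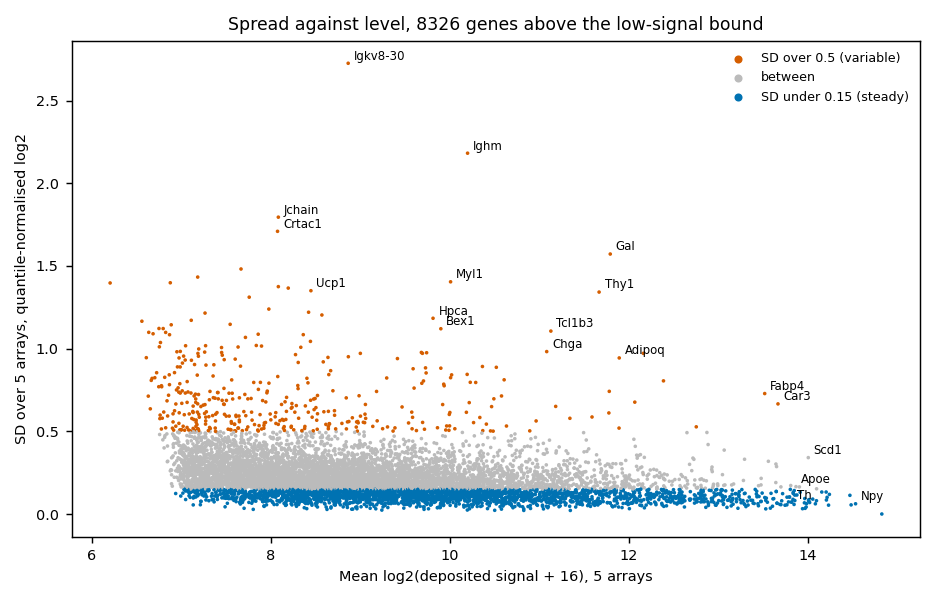
SD over the 5 wild-type arrays after quantile normalisation (vertical axis, log2 units) against mean log2(deposited signal + 16) (horizontal axis) for 8326 genes. Variable genes (388, SD over 0.5) are mostly of low signal. Igkv8-30 is variable at a mean of 8.86, and Ighm, Gal, Thy1 and Adipoq are variable at higher means. Npy and Th lie under 0.15 after quantile normalisation (0.35 and 0.21 without it).

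The steadiest genes were of mixed function. Tuba1a has an SD of 0 by construction, since it held the first rank in each array and quantile normalisation gives equal ranks equal values. Apart from it, the mitochondrial import receptor Tomm70a gave 2532, 2578, 2517, 2675 and 2634 (SD 0.022) and the nuclear protein gene Akirin1 1778, 1790.3, 1835, 1811 and 1778 (SD 0.022). The Golgi exchange factor Arfgef1, the sphingolipid synthase relative Samd8, Commd7, Lrwd1, the oxysterol-binding protein Osbpl2, Rps27l, the import chaperone Timm10, Qdpr, Prmt3, Serp1, Babam1 and Cmtr1 completed the 15 steadiest genes with a mean signal above 470. On the normalised scale, and apart from Tuba1a, their highest and lowest arrays differed by 1.04-fold to 1.06-fold.

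A list score, the mean deviation of a list's members above the bound from their own means, was used to see which cell types moved as a block. For the noradrenergic neuron list it ran from -0.04 in replicate 4 to 0.08 in replicate 2 (SD 0.048 log2 units over 5 arrays), and for the general neuron list from -0.13 to 0.08 (SD 0.090). The satellite glia score was -0.21 in replicate 2 and 0.21 in replicate 1 (SD 0.18). The myelinating Schwann cell score was 0.38 in replicate 4, where 7 of 8 members had their highest value, and lay between -0.22 and 0.12 elsewhere. Macrophage (SD 0.12), fibroblast (SD 0.12) and endothelial (SD 0.15) scores moved little. The white adipocyte score had an SD of 0.60 and the brown adipocyte score one of 0.58. The mean scores of these neuronal, glial and endothelial lists thus differed less between arrays than those of fat. A mean score does not show members that move in opposite orders, as Gal and Slc18a1 did in the noradrenergic list. It also leaves out genes that did not pass the bound, such as Vip and Slc18a3, described below.

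**Figure D4:**
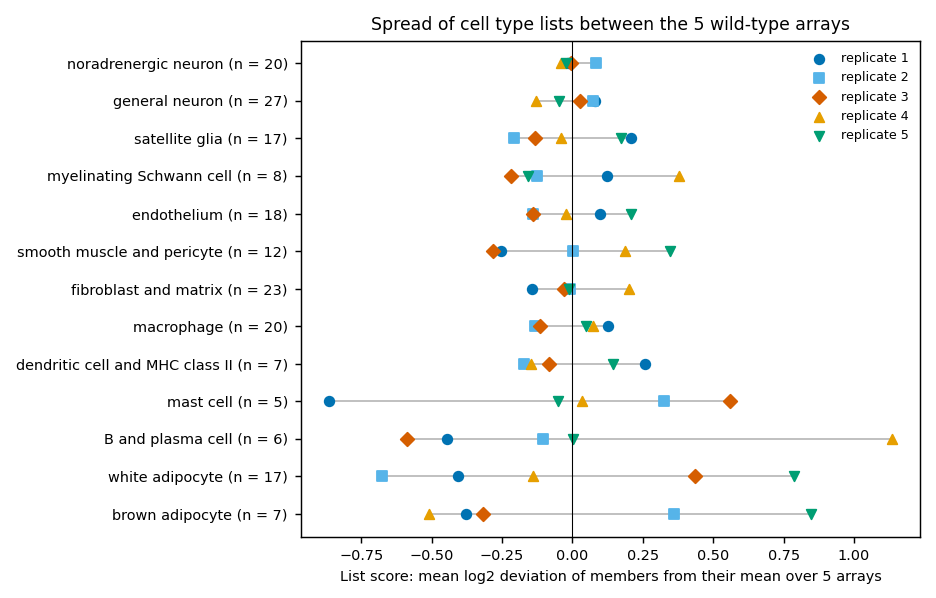
List score of 13 cell type lists (rows, with the number of members above the bound) in each wild-type array, in log2 units (horizontal axis). Neuron lists lie within 0.13 of 0, white adipocyte scores range from -0.68 in replicate 2 to 0.79 in replicate 5, and the B and plasma cell list is highest in replicate 4.

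A set of neuronal genes was high in replicates 1 and 5 and low in the other arrays. Vip, the gene of vasoactive intestinal peptide, gave 4881, 36.1, 68.2, 62.5 and 4414. Its signal was far above the bound in replicates 1 and 5 and under the bound in the other 3, so that it did not pass the 3-array rule; its SD, 3.31 log2 units, exceeded that of every gene that did. Slc18a3, the vesicular acetylcholine transporter, gave 229.5, 32.1, 59.2, 61.4 and 234, with the same 2 arrays above the bound, and Slc5a7, the choline transporter, gave 37.6, 36.4, 63.0, 39.9 and 40.2, under it in all. Vip and Slc18a3 are markers of cholinergic sympathetic neurons. Ache, the acetylcholinesterase that noradrenergic neurons also make, did not follow them (2032, 3011, 2204, 1814 and 1854), and neither did Th, Dbh or Npy. Replicates 1 and 5 were also the highest, by smaller margins than for Vip, for some genes listed with other cells. Examples are Csf1r of macrophages (2214, 1652, 1748, 1976 and 2445) and Vwf of endothelium (441, 225, 128, 346 and 524), but not Mrc1 or Pecam1. The share of all genes with this order was not counted.

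More genes of neurons were highest in the same arrays. Gal, the neuropeptide galanin, gave 9353, 4229.9, 576, 3295 and 7165. Replicates 1 and 5 were highest, replicate 3 was lowest, and the normalised range was 15.7-fold. Thy1, a surface glycoprotein of neurons, gave 9234, 2989, 864, 2274 and 6477, again highest in replicates 1 and 5 and lowest in replicate 3. Bex1, a small adaptor protein of neurons, gave 2532, 506, 507, 580.1 and 1896, with replicates 2, 3 and 4 close together. The serotonin transporter gene Slc6a4 gave 738, 254, 57.4, 148 and 584, the peptide gene Sst (somatostatin) 435, 134, 22.4, 62.0 and 303 and Cartpt, the CART peptide gene, 229, 83.1, 111, 80.7 and 219. In all 3, replicates 1 and 5 exceeded the others. Crtac1 (1122, 126, 100.2, 71.8 and 848), Pcp4 (819, 133, 90.8, 201 and 732), Fgf13 (599, 116, 81.0, 89.6 and 553), Prkg2 (763, 107, 79.5, 64.9 and 723) and Ecel1 (893, 275, 191, 225 and 617) were also highest in replicates 1 and 5, as were Gfra3, a co-receptor of the GDNF family (869.6, 487, 355, 297 and 812), and Prom1, which encodes prominin (1719.5, 979, 389, 1105 and 1520.2); Prkg2 passed the bound only in those arrays. Chga, the chromogranin A gene, gave 4020.1, 2978, 699.9, 1924 and 2833; replicate 3 was far below the rest and replicate 2 was slightly above replicate 5, so it shared with Gal and Thy1 the lowest array and the highest, replicate 1, but not the second highest.

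The 150 bases before the annotated start are shown for 3 of these peptide genes, chosen after their values were seen, as bright members of the neuropeptide and granin list with a large SD. The capitals mark TGACG, the core of the cyclic AMP response element, where it occurs.
Vip: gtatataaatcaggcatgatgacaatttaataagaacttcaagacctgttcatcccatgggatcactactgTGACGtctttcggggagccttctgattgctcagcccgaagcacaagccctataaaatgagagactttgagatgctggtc
Gal: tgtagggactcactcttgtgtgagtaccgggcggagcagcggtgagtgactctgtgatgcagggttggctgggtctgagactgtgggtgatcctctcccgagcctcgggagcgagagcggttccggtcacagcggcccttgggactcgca
Chga: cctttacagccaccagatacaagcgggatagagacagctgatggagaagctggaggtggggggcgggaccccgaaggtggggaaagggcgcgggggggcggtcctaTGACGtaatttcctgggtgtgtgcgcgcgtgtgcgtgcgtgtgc
The windows lie at chr10:5639068-5639217 (plus strand), chr19:3414545-3414694 (minus strand) and chr12:102554791-102554940 (plus strand) of GRCm38.p6, in the order printed. Vip and Chga hold TGACG, as do 13.3% of the 32851 windows on either strand, and Gal holds none. The windows of Dbh and Npy do not hold it on either strand, and that of Th does.

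Other genes showed the opposite, low in replicates 1 and 5. Myl1, a myosin light chain listed with skeletal muscle, gave 259, 1283, 2767, 2145 and 522, while the muscle genes Ckm (196, 200.4, 198, 154 and 210.0) and Acta1 (134, 73.1, 82.6, 71.7 and 95.1) did not follow it. Hpca, the neuronal calcium sensor hippocalcin, gave 277, 1140.4, 2545, 1094 and 592, and Htr3b, a serotonin-gated channel subunit, 575, 1763, 2786, 2108 and 1071. In each, replicate 3 was highest and replicate 1 lowest. Penk, the enkephalin precursor, gave 113, 414, 569, 448 and 174, and Slc18a1, the vesicular monoamine transporter of chromaffin and small intensely fluorescent cells, gave 208, 283, 649, 381 and 162. Both were highest in replicate 3 and low in replicates 1 and 5. Gna14, a G protein subunit (37.1, 386, 452, 364 and 75.1), Rerg, a small GTPase (90.2, 265, 686, 423 and 94.2), Cckar, a cholecystokinin receptor (451, 1397, 1162, 1575 and 353), Prr15 (336, 1239.7, 1621, 1109 and 462), Bmp4, a secreted morphogen (236, 628, 1233, 604 and 264), and Brinp1 (295, 608, 1437, 694 and 470.3) showed it too.

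Hox genes, which mark position along the body axis and are kept on in adult neurons, also differed between arrays. This list was added after the values of other genes had been seen. Of 31 Hox genes measured, 12 exceeded the bound, against 67.2% of all genes. Of these 12, 5 were variable. The share of variable genes was 4.66% over all genes above the bound and 8.90% among the 2775 of lowest signal. Hoxc8 gave 450.4, 1152, 1196, 1002 and 402 and Hoxc4 193, 392, 782, 450.5 and 106, low in replicates 1 and 5. Hoxd9 gave 375, 67.3, 121, 90.7 and 328 and Hoxd8 305, 232, 214, 224 and 347, highest in replicates 1 and 5. Hoxa9 (239.9, 439, 341, 135 and 428) and Hoxa5 (79.7, 169, 129, 59.0 and 164) had other orders, both lowest in replicate 4, and Hoxc6 (474, 590.2, 548, 423 and 438) and Hoxc9 (373, 307, 372, 245 and 404) varied less. Hoxa10, Hoxd10, Hoxd11, Hoxd12, Hoxd13, Hoxb13 and Hoxc13 stayed under the bound in every array. Within the hybridisation control levels, which set replicates 1 and 2 apart from replicates 3, 4 and 5, Vip had an SD of 3.8 log2 units. The part of the ganglion of origin in these orders was not tested.

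**Figure D5:**
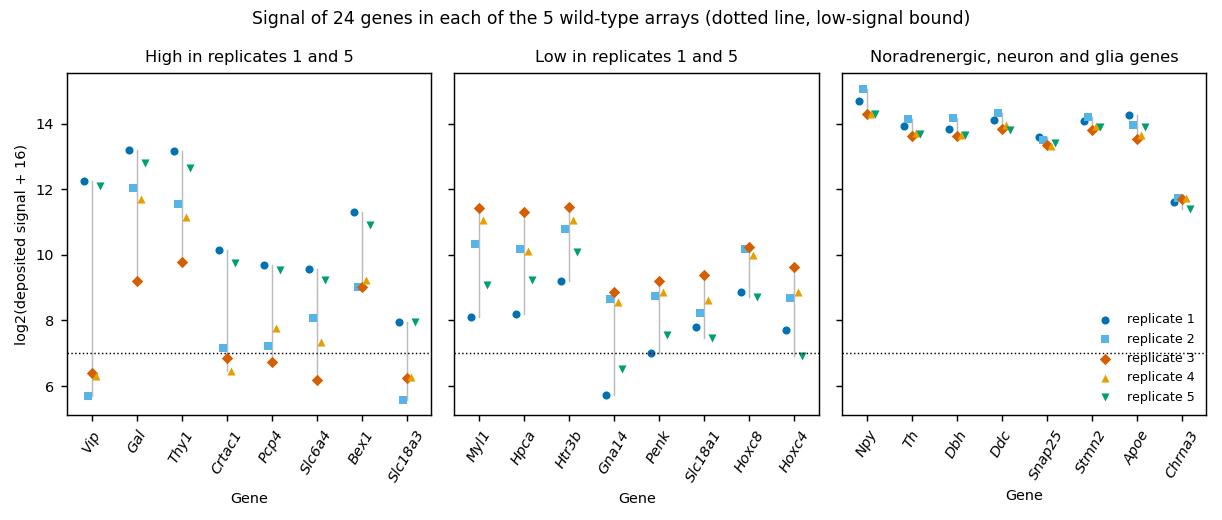
log2(deposited signal + 16) (vertical axis) of 24 genes in each of the 5 wild-type arrays (symbols), with the low-signal bound as a dotted line. Vip, Gal and Thy1 are highest in replicates 1 and 5, Myl1, Hpca and Hoxc8 are lowest in those arrays, and Npy, Th, Dbh, Ddc, Snap25, Stmn2, Apoe and Chrna3 vary less.

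The fat lists contributed another block of variable genes with a different order. Of the 17 white adipocyte genes above the bound, 14 were variable, and all 17 were highest in replicate 5 after quantile normalisation. Over all genes above the bound, 4.66% were variable and 16.05% were highest in replicate 5. Fabp4, the fatty acid binding protein of fat cells and capillaries, gave 8255, 7396, 14693, 11983 and 20468, Lpl, the lipoprotein lipase, 3046, 2346, 6216, 4653 and 6868 and Thrsp, a lipogenic regulator, 3127, 3735, 7538, 4379.7 and 11220.3. Replicates 3 and 5 were the highest for all 3, and replicates 1 and 2, the arrays of high hybridisation control, were the lowest. Within those levels the SD of the white adipocyte score was 0.398, against 0.603 over all arrays. Ces1d (736, 673, 1997, 1301 and 2873), a lipase of fat and liver, Cd36 (596, 395, 1455, 1268 and 1656), a fatty acid transporter, Rbp4 (521, 326, 1332, 798 and 1834), Hp (678, 274, 1068, 841 and 1437) and Tmem45b (784, 334, 985, 781 and 1949) were highest in replicate 5 as well. Of the 7 brown adipocyte genes above the bound, 5 were variable. Cox8b (668, 1467, 1108, 680.5 and 2751) and Cidea (523, 1166, 1130.3, 660.0 and 2329) were, like Ucp1, highest in replicates 5 and 2, so that brown fat genes were high in an array where Adipoq was lowest. The noradrenergic neuron score in replicate 5 was -0.02, and the part of captured fat in any neuronal value was not tested.

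Antibody genes were high in a single array. Ighm, the heavy chain of IgM, gave 510.3, 1179, 372, 14604 and 610.4, Igkv8-30, a kappa variable segment, 90.3, 524, 158, 10999 and 183 and Jchain, the joining chain of secreted IgM and IgA, 86.0, 182, 86.7, 2047 and 326. Replicate 4 was far above the other 4 arrays for all 3. Of the 11 single-gene probe sets of Ighm, only the brightest and one other, at 228, 454, 173, 5784 and 229.9, showed this, and the rest read under 500 in every array. Igk (147, 199.8, 195, 537 and 149.5) was highest in replicate 4 too, whereas Igha, the IgA heavy chain, gave 173, 204, 203, 596 and 894 and was highest in replicate 5. Neither Xbp1 nor Prdm1, transcription factor genes of plasma cells, was highest in replicate 4: Xbp1 gave 4839, 4570.3, 5154, 4654 and 4278 and Prdm1 117, 101, 82.5, 68.2 and 125. Prdm1 and Irf4, both lowest in replicate 4, did not pass the bound. Pou2af1, also of the B and plasma cell list, was highest in replicate 4 but under the bound in every array. The part of plasma cells in the antibody signal was therefore not tested by these values. Mast cell proteases had yet another order. Mcpt4 gave 8.7, 206, 266, 91.9 and 118 and Cma1, mast cell chymase, 154, 404, 559, 305 and 301, both lowest in replicate 1 and highest in replicate 3, and Cpa3, the mast cell carboxypeptidase, gave 213, 333, 564, 317 and 246.

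The remaining genes among the 25 most variable of signal above 470 belonged to none of these blocks. Tcl1b3 gave 4454, 1363, 5734, 1147 and 1346, above 1000 in every array and highest in replicates 1 and 3. Retnla, a resistin-like protein of fat and of alternatively activated macrophages, gave 651, 409, 2059, 387 and 608, with replicate 3 alone above 700. Malat1, a nuclear noncoding RNA, gave 1486, 570.2, 1169, 1156 and 351, and its other 4 probe sets read 41.0 to 215.6.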

How the data were processed

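The deposited table holds linear signals, that is, array intensities, for 22690 probe sets in 11 arrays, made by the authors with the software GCOS 1.4 according to the submitters' processing notes. The algorithm behind the signals, and any calls of presence, were not given in the sources used here. The 64 control probe sets were left out. Of the rest, 20380 carried 1 gene symbol in the platform annotation, 691 several and 1555 none, and only the first were used; 20351 of them were found in the RefSeq table of GRCm38.p6, and 0 symbols changed.

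Levels are deposited signals and ranks of the mean of log2(signal + 16). Spreads are SDs of log2(signal + 16) quantile normalised over the 5 arrays (Python 3.11.15, numpy 2.4.6, pandas 2.3.3). No test was made, because 1 group has no comparison, and the number of arrays limits the precision. The script was checked on simulated data. The share of an array's summed signal was taken over the representative probe sets of the 12393 genes.

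The members and the 41 gene lists (815 names, 678 measured) were chosen with earlier results of these data known. Named genes are the 4 markers Th, Dbh, Npy and Apoe and the 30 of highest signal. To these come the 25 of largest and the 15 of smallest SD with a signal above 470. Genes from the first 3 of most lists are also named, though not all of them, with the defining markers of a list that lay below the bound. Predicted genes were skipped. The Hox list and any other gene named were picked with their values in view. As alternatives, another normalisation or none, other pseudocounts and bounds, the mean of all probe sets, other measures of spread, the removal of each array and spreads within hybridisation control levels were tried.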

Additional observations from a re-analysis of the deposited data

Results flagged for a closer look

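The highest or lowest array was set against the others by Dixon's ratio, the gap to the nearest array divided by the range, on quantile-normalised log2 values in 57 genes and 35 list scores, with 0.71 as the critical value for 5 arrays; chance gives about 1 in 20. It was exceeded by 3 genes and 1 list. Dbh had a ratio of 0.822 for replicate 2, whose normalised value was 13.98 against 13.73 to 13.77 in the other arrays. Igk, a kappa light chain gene, had 0.761 for replicate 4, with 9.14 against 7.32 to 7.75. Prrx1, a mesenchymal transcription factor gene that stayed under the bound, had 0.717 for replicate 4. The score of the chromaffin and adrenal cortex list, over 5 members above the bound, had 0.726 for replicate 2, where it was 0.31 log2 units.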

How the results depend on the processing

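No paired analysis was possible because no group comparison or test was made. The count of 388 variable genes was 229 with a pseudocount of 64, 157 with the bound at the 60th percentile, 1841 with no bound and 1560 when the SD was set against its trend with level (ratio over 1.5). With the bound required in at least 1 array, an alternative chosen after seeing the data, it was 724 and included Vip. Leaving out 1 array gave 310 to 340 variable genes, of which 245 to 268 were among the 388. The 2554 steady genes became 741 against the trend (ratio under 0.5). With all probe sets of a gene averaged, Th stood at percentile 99.91, Dbh at 99.90 and the endothelial list at 51.8, and the SD of Ighm was 0.42. The noradrenergic score SD was 0.0995 with no step between arrays and 0.0985 with median centring, and without 1 array it ran from 0.0161 (replicate 2 left out) to 0.0555. Without 1 array the myelinating Schwann cell score SD ran from 0.15 (replicate 4 left out) to 0.275 and the fibroblast score SD from 0.0638 (replicate 4 left out) to 0.144. The white adipocyte score SD was 0.398 within hybridisation control levels, also an added alternative. The cause of these shifts was not tested. The other 232 alternative values of the main counts, percentiles and scores stayed within 1.5 times the main value for counts and score spreads, and within the spread between arrays for percentiles. Some single genes rest on 1 array: the SD of Gal was 0.71 and that of Chga 0.46 without replicate 3, that of Adipoq 0.58 without replicate 2, and those of Ighm, Igkv8-30 and Jchain 0.70, 0.997 and 0.84 without replicate 4. The signal over background limits genes near the bound, where the ordering of arrays is least certain.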

Other observations

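Stress, activity and clock genes add to the picture of the tissue as it was frozen. Chaperones were among the brightest transcripts: of 17 heat shock and stress genes, 16 exceeded the bound, with Hspa8 at rank 4 and Hsp90aa1 (11845 ± 1145), the inducible cytosolic chaperone, above the 99th percentile. The inducible genes Hspa1a (247 ± 16.1, percentile 50.2) and Hspa1b (398 ± 88.9, percentile 61.8) had middle ranks. Hmox1 (74.8, 63.7, 27.5, 53.0 and 58.9) was under the bound. Other stress genes of the list ranked higher, such as Bag3 (1818 ± 311, percentile 90.7) and Hspb1 (5550 ± 900, percentile 97.7). The metallothioneins, which bind zinc and copper, varied more than the chaperones. Mt1 gave 3807, 2432, 1724, 3222 and 3771 and Mt2 2451, 1423, 1169.9, 2351 and 2474 in replicates 1 to 5, both lowest in replicate 3. Immediate early genes, which rise within minutes of stimulation, were mostly modest: Fos gave 215, 124, 145, 144 and 196 and Egr1 434, 266, 315, 347 and 214, while Arc (51.8, 8.5, 24.0, 11.1 and 7.9) and Fosb (75.6, 14.1, 42.9, 49.5 and 56.7) stayed under the bound. Of 27 such genes 17 passed, and the median percentile was 39.4.

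Of 17 clock genes, 14 passed the bound. Tef (2375 ± 325) and Dbp (1324 ± 241), output factors of the clock, were highest. Nr1d1, which encodes the repressor REV-ERB alpha, gave 94.6, 35.6, 187, 194 and 252, lowest in replicate 2 and highest in replicate 5, whereas its relative Nr1d2 gave 1314, 1059, 1068, 1563 and 1366 and Per1 524, 419, 444, 400.1 and 387. The labels do not give the hour of sampling. Among lipid carriers besides Apoe, Apod (4471 ± 612) and Clu (4452 ± 1036) were high, and Clu was lowest in replicates 1 and 5. The liver apolipoproteins Apoa1 (41.0, 53.1, 6.2, 44.2 and 27.1) and Apob (58.9, 49.7, 82.6, 15.7 and 61.4) were under the bound in every array. Syt1, the calcium sensor of vesicle release, was the 1 variable member of the synaptic list, at 565, 865, 1397, 1425 and 1052, lowest in replicate 1.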
